A study of Arabidopsis thaliana with 6 samples.

Results

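The transcriptome of young Arabidopsis thaliana roots with no added hormone was described from the mock-treated libraries of a study of the auxin response. The members were the 3 mock libraries among the 6 libraries of the series, taken by their group label, and no value of the auxin-treated libraries was used. All plants were wild type of the ecotype Col-0, the standard laboratory accession, and were 3 days past germination. Per the labels, seeds spent 7 days at 4 °C, and seedlings then grew on upright plates of 1/2 strength Murashige and Skoog medium at 22 °C with 16 h of light. Seedlings were moved for 1 h into liquid medium with no added hormone, and roots were then frozen, about 100 roots for each sample. The labels name the samples as biological replicates without saying that they were grown separately, so the spread given here may in part be technical. The roots were pooled and whole, which means that every value is an average over all cell types of the root.

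A young root grows from a small group of slowly dividing cells near its tip, the quiescent centre and the stem cells around it. Behind the tip the cells divide, then elongate, then mature into concentric layers, with epidermis outside, cortex and endodermis inside it, and pericycle, phloem and xylem in the centre. Auxin sets the position of the stem cells and the rate of elongation. It is perceived by TIR1/AFB receptors, which mark Aux/IAA repressors for breakdown and so free the ARF transcription factors. Ethylene, cytokinin and the other hormones act on the same zones.

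The mock libraries held 20954961, 20908916 and 20980747 read counts, so depth was almost equal. Levels are given as counts per 1000000 (CPM) after TMM scaling, a correction of library totals by edgeR, in the order mock 1, mock 2 and mock 3. Levels of different genes are compared only as CPM per kb of exonic length, given as mean ± SD over the 3 libraries. At this depth 3 counts over the 3 libraries correspond to 0.0477 CPM, the limit that a total of 0 counts allows. This limit covers counting error only.

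The libraries did not stand equally close to each other. Across 18706 genes with a mean of at least 1 CPM, Pearson's r of log2(CPM + 1) was 0.986 between mock 1 and mock 2, 0.982 between mock 1 and mock 3 and 0.967 between mock 2 and mock 3. These are descriptions across genes, which are not replicates. Transcripts of green tissue were lowest in mock 2, with a summed level of 2494, 366 and 3928 CPM for 16 photosynthesis genes. Transcripts of a list for low oxygen, wounding and handling were lowest in mock 3, with a summed level of 1249, 1548 and 312 CPM. Summed levels of these lists without single libraries stand with the account of the spread. The part of either difference in other genes was not tested.

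Most of the transcriptome sat at intermediate levels. Of 32833 genes in the table, 24896 (75.8%) had at least 1 count and 7937 had none. A mean level between 10 and 100 CPM was found for 10656 genes, and these took 37.5% of all counts. A further 2070 genes between 100 and 1000 CPM took 48.2%. The 69 genes at 1000 CPM or more took 11.3% ± 0.176 (SD, n = 3). At the other end, 3235 genes had counts but stayed under 0.1 CPM, 2955 lay between 0.1 and 1 CPM, and 5911 lay between 1 and 10 CPM.

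**Figure D1:**
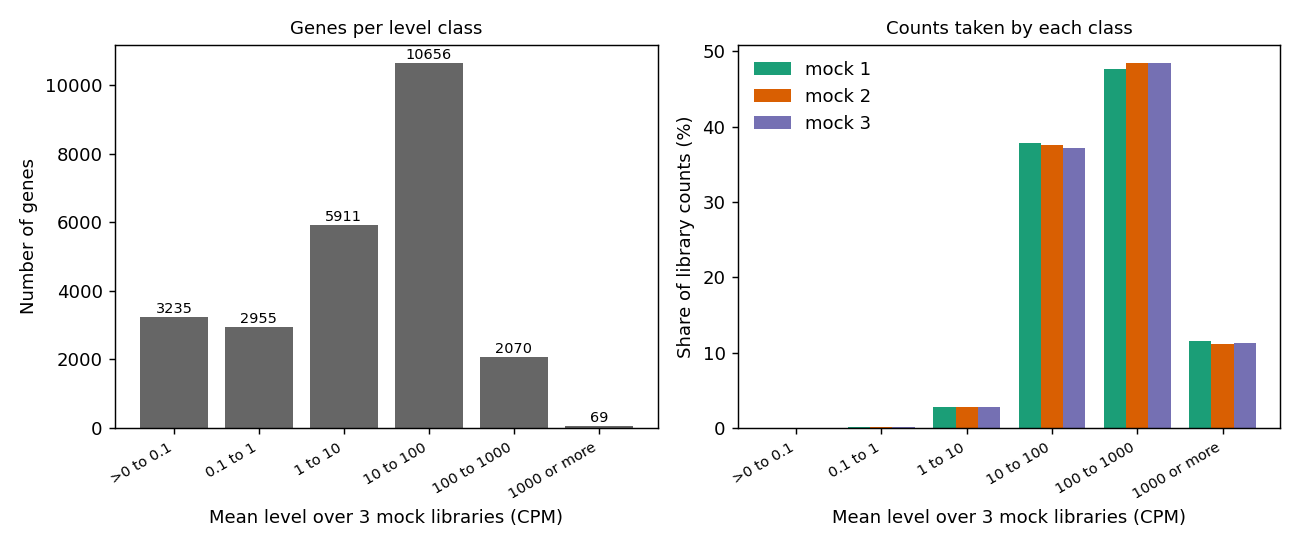
Genes and counts by level class in mock-treated roots. The left panel gives the number of genes by mean CPM over the 3 libraries and the right panel the share of each library's counts (%) taken by the class. The class from 10 to 100 CPM holds 10656 genes, and the class from 100 to 1000 CPM takes the largest share of counts in each of the 3 libraries.

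Counts were spread over many genes rather than held by a few. The 10 most abundant genes took 3.18% ± 0.181 of the counts, the 100 most abundant 13.998% ± 0.145, and the 1000 most abundant 44.2% ± 0.400 (SD, n = 3 each). It took 1348 genes to reach 50% of all counts and 8416 genes to reach 90%. Of 27444 nuclear protein-coding genes, 23066 (84.0%) had at least 1 count and 18501 (67.4%) reached 1 CPM. Protein-coding genes took 99.5% of the counts. Ribosomal RNA, which had been depleted before library construction, took 0.251% ± 0.0317, and long non-coding RNA genes took 0.0679% ± 0.00591. Of 3480 long non-coding RNA genes, 1037 had a count and 71 reached 1 CPM. The plastid genome took 0.00764%, 0.00326% and 0.0201% of the counts of mock 1, 2 and 3, lowest in mock 2 and highest in mock 3, the same order as the green transcripts. The mitochondrial genome took 0.0239% ± 0.00630.

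The most abundant transcript of the roots was PYK10 (AT3G09260, chromosome 3 from 2840477 to 2843781 in TAIR10.1), which encodes the main beta-glucosidase of the ER bodies, organelles of root cells that store a defence enzyme against herbivores and microbes. PYK10 had 8681, 7404 and 5799 CPM in mock 1, 2 and 3, and 0.731% of all counts over the 3 libraries. It was highest in mock 1 and lowest in mock 3, a ratio of 1.497 between them. Per length it stood at 4039 ± 799.7 CPM per kb (SD, n = 3). Its partner PBP1 (AT3G16420), a jacalin-related lectin that binds PYK10, also ranked among the 20 most abundant genes per length, with 2145, 1942 and 1637 CPM. The other genes of this system followed in the same list of 14 members. The lectin gene JAL34 had 1798, 1701 and 1734 CPM. BGLU22, a close relative of PYK10, had 1019, 1172 and 1176 CPM, and part of its reads may belong to the very similar BGLU21. All 14 members had counts, their median level was 167 CPM per kb against 4.57 CPM per kb over all nuclear protein-coding genes, and together they took 1.53% of the counts.

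Cell wall and water transport genes were among the next ranks per length, beside AT2G01021, AT3G15450 and AAC1, which are described further on. AT2G43150, a proline-rich extensin-like gene, had 3823, 3059 and 2543 CPM, or 2226 ± 456 CPM per kb. EXT3, which encodes a structural glycoprotein of the cell wall, had 3247, 2582 and 2527 CPM, or 1684 ± 242 CPM per kb. Both were highest in mock 1 and lowest in mock 3. The tonoplast aquaporins, water channels of the vacuole membrane, had 2211, 2004 and 1996 CPM for TIP1;2 and 1909, 1738 and 1799 CPM for TIP1;1, and their CVs over the libraries were 5.90% and 4.78%.

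Central metabolism and protein synthesis were the other large group at the top. AAC1, the mitochondrial ADP/ATP carrier, had 2583, 2572 and 3005 CPM. ATMS1, a methionine synthase, had 2917, 2824 and 3824 CPM and was second by CPM but lower per length, at 962 ± 167 CPM per kb. HOG1, the S-adenosylhomocysteine hydrolase of the same methyl cycle, had 2375, 2608 and 2911 CPM. These are housekeeping enzymes of growing cells. GAPC1, a glycolytic glyceraldehyde-3-phosphate dehydrogenase, had 2127, 2218 and 1876 CPM, and the cytosolic malate dehydrogenase gene c-NAD-MDH1 had 1728, 1815 and 1829 CPM with a CV of 3.06%, the lowest of the 20 most abundant genes per length. EF1A4, which encodes translation elongation factor EF-1 alpha, had 2300.1, 2267 and 3143 CPM, and its reads may be split among near-identical copies. The chaperone gene HSC70-1 had 2030.4, 2024 and 2879 CPM. Both EF1A4 and HSC70-1 were highest in mock 3, with mock 1 and mock 2 close to each other.

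The remaining genes among the 20 most abundant per length included dehydrins, hydrophilic proteins known from water stress. ERD14, a dehydrin, had 1628, 1698 and 1259 CPM, and a second dehydrin-family gene, AT1G54410, had 1366, 1395 and 1038 CPM, both lowest in mock 3. MT2B, a metallothionein that binds metal ions, had 663, 596 and 601 CPM. TCTP, a conserved growth-related protein, had 1219, 1393 and 1627 CPM, and the cyclophilin gene ROC5 had 1158, 1284 and 1383 CPM. AT3G15450, annotated as an aluminium-induced protein, had 1931, 1964 and 2163 CPM and AT5G26280, a TRAF-like gene, had 1792, 1889 and 983 CPM. AT5G26280 had the widest spread of the 20 after AT2G01021, with a CV of 32.0%, since mock 3 was far below the other libraries.

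AT2G01021 ranked second per length by its mean and is uncertain as a protein-coding gene. It is 102 bases long and lies on chromosome 2 from 6571 to 6672, downstream of the ribosomal RNA genes AT2G01010 (3706 to 5513) and AT2G01020 (5782 to 5945) in TAIR10.1. It had 151, 141 and 506 CPM, with mock 3 above 3 times either of the other libraries. Its rank rests on mock 3, since its level was 1481, 1378 and 4965 CPM per kb in mock 1, 2 and 3, and the mean of 2608 CPM per kb was 1429.6 CPM per kb without mock 3. The neighbouring AT2G01010 had 898, 1029 and 1208 CPM. Whether counts of AT2G01021 came from ribosomal RNA precursor was not tested.

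**Figure D2:**
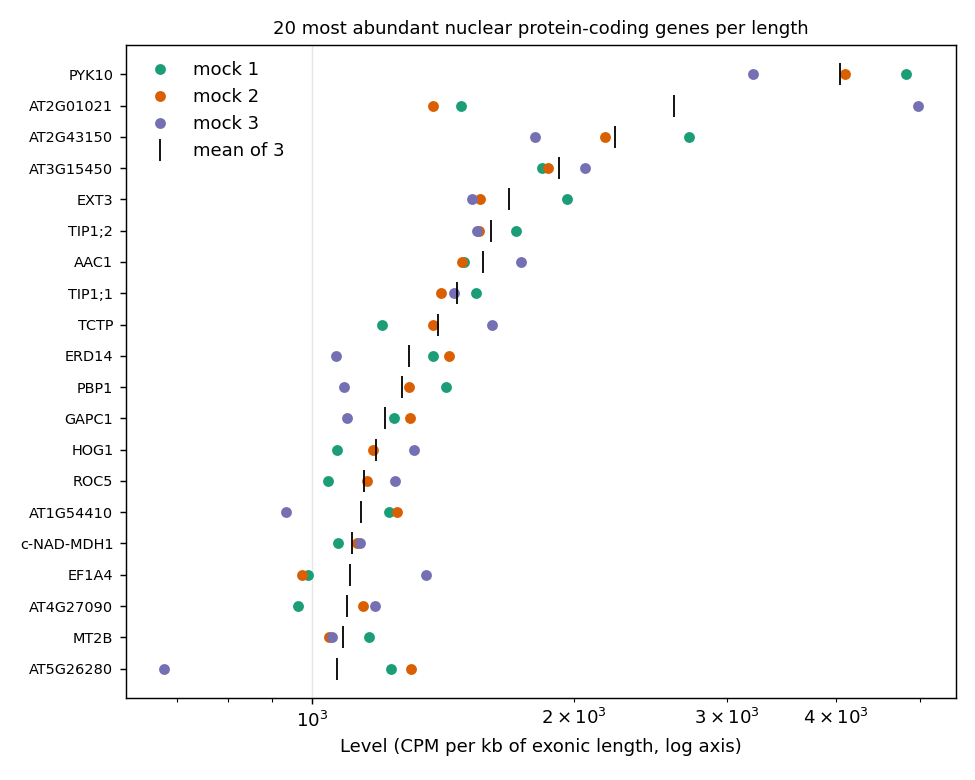
Levels of the 20 nuclear protein-coding genes with the highest mean per length in mock-treated roots. The log axis gives CPM per kb of exonic length, coloured points are single libraries and the vertical tick is the mean of 3. PYK10 leads at 4039 CPM per kb, and AT2G01021 and AT5G26280 show the widest gaps between libraries.

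The 100 bases before the annotated gene start are shown for the 4 most abundant genes per length other than AT2G01021. This sets their upstream sequences beside each other, and promoter activity was not measured. Capitals mark TATAAA, the core of the TATA box, on either strand. The sequences are from the RefSeq TAIR10.1 genome and are written 5′ to 3′ on the strand of the gene. PYK10 is at chr3:2843782-2843881 on the minus strand, AT2G43150 at chr2:17945562-17945661 on the plus strand, AT3G15450 at chr3:5212884-5212983 on the plus strand and EXT3 at chr1:7455010-7455109 on the minus strand.
PYK10: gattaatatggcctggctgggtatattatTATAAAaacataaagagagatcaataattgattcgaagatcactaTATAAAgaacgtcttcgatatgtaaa
AT2G43150: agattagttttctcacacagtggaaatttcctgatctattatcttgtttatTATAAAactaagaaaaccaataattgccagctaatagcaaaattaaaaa
AT3G15450: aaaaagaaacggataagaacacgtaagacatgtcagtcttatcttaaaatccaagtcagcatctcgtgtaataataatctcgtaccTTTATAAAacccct
EXT3: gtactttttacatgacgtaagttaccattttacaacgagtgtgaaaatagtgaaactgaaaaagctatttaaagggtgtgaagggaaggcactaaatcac
A TATAAA match on the gene's strand started 26 bases before the start of PYK10, and EXT3 had none in this window. In AT3G15450 the matches on both strands overlap. TATAAA on either strand occurred in 47.3% of the 250-base windows before 27443 nuclear protein-coding genes, and in 50.7% of the windows of the 67 genes at 1000 CPM or more. The share was thus nearly the same in the most abundant class as in all genes. A match is a description of letters and not of a bound site, and an annotated start may be a start codon where no leader is annotated.

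The protein synthesis machinery was the largest single family examined. The 312 genes annotated as ribosomal proteins, of which 300 had counts, took 6.34% of all counts, with summed levels of 56054, 65246 and 69027 CPM in mock 1, 2 and 3. Mock 1 was the lowest library for the sum, and it was also the lowest for 217 of the 267 members at 10 CPM or more, while 3834 of all 12795 genes at that level were lowest in mock 1. The family was taken by product name, which does not always tell cytosolic from organelle ribosomal proteins. Entries with nearly equal counts were each included. AT1G58684 had 515, 579 and 654 CPM, and AT1G58983 and AT1G59359 each had 516, 579 and 654 CPM. In mock 1 these entries had 10907, 10910 and 10912 counts. Whether the same reads were counted for each entry was not tested. If they were, the share of 6.34% is too high. The median level of the family was 77.6 CPM per kb. AT4G27090, a ribosomal protein L14 gene of the large subunit, led with 704, 835 and 863 CPM and 1097 ± 116 CPM per kb. AT5G20290, a ribosomal protein S8e gene of the small subunit, had 1001, 1193 and 1296 CPM and 1041 ± 134 CPM per kb. emb2386, a ribosomal protein L19e gene, had 981, 1195 and 1210.3 CPM. In all of these mock 1 was the lowest library. The 5 genes of cytosolic elongation factors summed to 7781, 7564 and 10815 CPM, and all 5 had the order mock 3, mock 1, mock 2 from high to low.

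Ribosomal protein genes of plants often carry 2 short promoter elements, the telo box and the site II element, and the upstream windows of the first 2 genes are shown for them. Capitals mark TGGGCC, the core of the site II element, AAACCCTA, the telo box, and TATAAA, each on either strand. AT4G27090 is at chr4:13595253-13595352 and AT5G20290 at chr5:6853107-6853206, both on the minus strand.
AT4G27090: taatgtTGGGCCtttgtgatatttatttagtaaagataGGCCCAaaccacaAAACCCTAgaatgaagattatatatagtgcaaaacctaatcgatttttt
AT5G20290: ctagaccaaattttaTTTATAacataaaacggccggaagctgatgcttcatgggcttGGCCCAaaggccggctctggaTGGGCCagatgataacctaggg
AT4G27090 held TGGGCC 94 and 62 bases before its start and AAACCCTA 49 bases before it. AT5G20290 held TGGGCC 43 and 22 bases before its start. The third gene, emb2386, is not shown. Its 250-base window held TATAAA 82 and 80 bases before the start, and neither TGGGCC nor AAACCCTA. Over the family, TGGGCC on either strand was found in the 250-base windows of 145 of 312 genes (46.5%), against 13.7% of all nuclear protein-coding genes. AAACCCTA was found in 16.7% of the family, against 4.49% of all genes.

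The share of genes with TGGGCC also differed along the range of levels. It was 5.71% among 4378 genes with 0 counts, 7.15% under 0.1 CPM, 9.55% from 0.1 to 1 CPM, 13.7% from 1 to 10 CPM, 17.8% from 10 to 100 CPM and 20.3% from 100 to 1000 CPM. Of the 67 genes at 1000 CPM or more, 15 held it. TATAAA showed no such order, with shares between 45.9% and 50.7% in the same classes. CACGTG, the G-box, was found in 3.45% of genes with 0 counts and in 7.58% of genes from 10 to 100 CPM, against 6.49% of all genes. The telo box did not rise with level. Its share was 7.83% among genes with 0 counts, 6.70% under 0.1 CPM and 3.69% from 0.1 to 1 CPM. It was 3.98% from 1 to 10 CPM, 3.11% from 10 to 100 CPM and 4.31% from 100 to 1000 CPM. Of the 67 genes at 1000 CPM or more, 5 held the telo box. Among the 267 ribosomal protein genes at 10 CPM or more its share was 13.9%, against 16.7% of the whole family. The part of other properties of these classes was not tested.

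Markers of all root cell types examined were present. The 15 lists with 164 genes also include green shoot tissue, guard cells with leaf epidermis, and seed storage. Over all lists, 161 genes had counts and 139 reached a mean of 1 CPM per kb, with a median of 12.4 CPM per kb. Green shoot tissue had 16 of 16 genes at that level, guard cells 1 of 8 and seed storage 1 of 11. In the genome, 17984 of 27444 nuclear protein-coding genes reached 1 CPM per kb. The count of marker genes at 1 CPM per kb was 138, 139 and 136 in mock 1, 2 and 3. Fewer cells of a type and less RNA per cell cannot be told apart in whole roots, so these are levels in the mixture and not cell numbers. Against the label root, the lists of root layers were detected and guard cell genes were near 0. By the mean of the libraries, all 16 genes of green shoot tissue stood at 10 CPM per kb or more. This did not hold in each library, since in mock 2 RBCS2B had 1.99 and RBCS1B 2.14 CPM per kb.

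**Figure D3:**
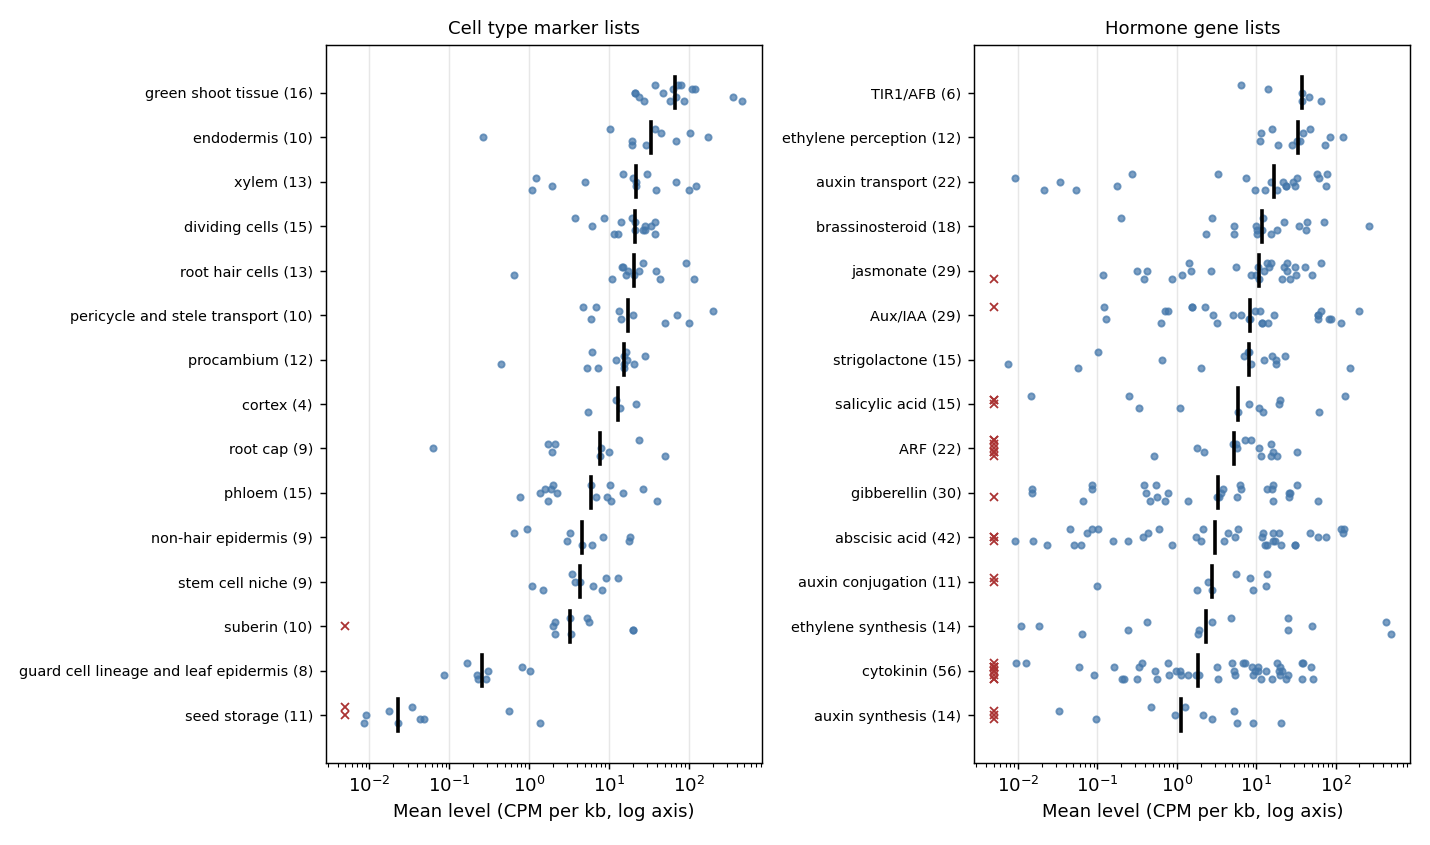
Mean levels of the members of the cell type lists (left) and hormone gene lists (right) in mock-treated roots. The log axis gives CPM per kb, each point is 1 gene, black bars are list medians, crosses at the left edge are genes with 0 counts and numbers in brackets are the members. Lists of endodermis, xylem and root hairs lie above those of guard cells and seed storage.

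The outer layers and the tip were clearly represented. PRP3, a proline-rich wall protein of root hairs, had 165, 135 and 129 CPM, and EXPA7, a root hair expansin that loosens the wall, had 101, 103 and 104 CPM with a CV of 1.198%. EXPA18, a second root hair expansin, had 58.3, 59.0 and 45.8 CPM. Of the 13 root hair genes 12 reached 10 CPM per kb. In non-hair epidermis the median was 4.56 CPM per kb, led by the patterning genes TTG1 with 35.3, 31.8 and 36.0 CPM, WER with 19.6, 28.8 and 18.9 CPM and CPC with 6.10, 6.47 and 6.58 CPM. The root cap, which covers the tip and sheds its outer cells, was led by RCPG, a polygalacturonase, at 78.5, 97.4 and 48.0 CPM, and CEL5, a cellulase, at 51.5, 46.4 and 58.2 CPM. The root cap NAC factor BRN1 had 9.78, 13.9 and 11.6 CPM. The peptide gene CLE40 had 1 count in all, in mock 3.

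The stem cell niche and dividing cells gave low to middle levels. PLT3, a factor that maintains the meristem, had 33.6, 35.1 and 50.4 CPM. RGF3, a peptide hormone gene of the tip, had 6.43, 9.997 and 7.01 CPM, and WOX5, which marks the quiescent centre, had 7.89, 7.66 and 10.4 CPM. All 9 genes of this list had counts and reached 1 CPM per kb. Among dividing cells, CDKB2;1, a mitotic kinase, had 53.9, 52.9 and 50.2 CPM, PCNA2, a clamp of DNA replication, had 38.9, 44.7 and 51.8 CPM and KNOLLE, needed for cell plate formation, had 42.0, 43.6 and 53.6 CPM. The median of the 15 genes was 21.4 CPM per kb, and their median CV at 10 CPM or more was 9.16%, close to the 9.63% of all genes at that level.

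The ground tissue was led by the endodermis, the layer that seals the centre of the root with the Casparian strip. CASP1, a scaffold protein of the strip, had 163, 166 and 149 CPM and 176 ± 9.91 CPM per kb, PER64, the peroxidase that lignifies it, had 129.99, 135 and 114 CPM, and CASP5 had 66.3, 80.4 and 41.6 CPM. Their master regulator MYB36, named outside the rule for its role, had 27.5, 30.4 and 23.3 CPM. The median of the list was 33.4 CPM per kb, the highest of the lists of root layers. In the cortex JKD, a zinc finger factor, had 52.8, 49.4 and 47.9 CPM, AED3 had 18.1, 17.1 and 29.9 CPM and the invertase inhibitor gene C/VIF2 had 13.0, 13.1 and 14.6 CPM. Suberin genes, which act in older endodermis, were lower, with a median of 3.301 CPM per kb. ASFT, a feruloyl transferase, had 37.5, 32.5 and 41.0 CPM, CYP86A1, a fatty acid hydroxylase, had 52.3, 35.1 and 26.1 CPM and ABCG6, a transporter, had 13.7, 9.23 and 19.1 CPM.

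Vascular genes were led per length by NPF7.3, followed by XCP2 and XCP1. NPF7.3, a nitrate transporter, had 477, 355 and 515 CPM and 202 ± 37.8 CPM per kb. PHO1, which exports phosphate to the xylem, had 349, 304 and 243 CPM, and BOR1, which exports boron, had 281, 219 and 160.3 CPM. PHO1 and BOR1 were highest in mock 1 and lowest in mock 3. In the xylem list, XCP2 had 176, 193 and 148 CPM and XCP1 149.7, 159 and 123 CPM, both cysteine proteases that clear the dying vessel cell, and TED6 had 49.9, 69.1 and 44.5 CPM. All 13 xylem genes reached 1 CPM per kb, with a median of 22.1 CPM per kb. In the phloem, the sucrose transporter gene SUC2 had 107, 80.7 and 60.1 CPM, the receptor kinase gene BAM3 had 97.6, 80.4 and 97.9 CPM and SEOB, a sieve element protein gene, had 41.9, 41.1 and 36.998 CPM. SUC2 was highest in mock 1 and lowest in mock 3. Procambium was led by LHW with 79.9, 77.9 and 72.3 CPM, TMO6 with 32.6, 33.7 and 34.4 CPM and ATHB8 with 61.1, 55.8 and 43.3 CPM, and 11 of its 12 genes reached 1 CPM per kb.

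Other tissues that the samples could hold gave a mixed picture. Guard cell and leaf epidermis genes summed to 4.63, 1.90 and 8.90 CPM over 8 genes. The highest per length were MYB60 with 1.42, 1.19 and 1.45 CPM, TMM with 0.756, 0.381 and 3.29 CPM and FAMA with 1.13, 0.0476 and 0.967 CPM, regulators of guard cells and their precursors. The seed storage list summed to 2.93, 3.38 and 1.21 CPM over 11 genes, 2 of which, SESA3 and SESA5, had 0 counts. OLEO4, an oleosin of oil bodies, made up most of that sum with 2.32, 2.71 and 0.725 CPM. Green tissue genes were higher, with a median of 66.6 CPM per kb, the highest of the 15 lists by the mean of the libraries. This place did not hold in each library. The median was 64.3, 13.1 and 108 CPM per kb in mock 1, 2 and 3, and in mock 2 it lay below those of endodermis, root hair cells, dividing cells, xylem, pericycle and procambium. Without mock 3 it was 40.8 CPM per kb. Genes of the shoot cuticle were also above the level of the guard cell genes, as given with the spread. RBCS1A, the small subunit of Rubisco, had 747, 41.5 and 991 CPM, LHCB1.3, a light-harvesting protein gene, had 449, 79.8 and 817 CPM, and RBCS3B had 197, 12.3 and 298 CPM. In each of the 3 genes mock 2 was below mock 1 and mock 3 by 5-fold or more. The copies of RBCS and LHCB1 are very similar, so reads may be split among them. The source of the green transcripts was not tested.

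Most hormone genes had counts, as did most nuclear protein-coding genes. Of 334 hormone genes in 15 lists, 305 had counts and 228 reached 1 CPM per kb. Of all 27444 nuclear protein-coding genes, 23066 had counts and 17984 reached 1 CPM per kb. The median was 6.34 CPM per kb for hormone genes against 4.57 CPM per kb over all nuclear protein-coding genes. The medians of the lists ranged from 1.12 CPM per kb for auxin synthesis to 37.3 CPM per kb for the TIR1/AFB receptors.

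Auxin synthesis genes had low levels. TAA1, the aminotransferase of the first step, led with 27.3, 31.6 and 35.6 CPM, and the flavin monooxygenase genes of the second step were led by YUC3 with 14.9, 17.6 and 16.7 CPM and YUC8 with 8.98, 10.9 and 10.3 CPM. TAR1, YUC10 and YUC11 had 0 counts. YUC1 had the lowest level above 0, 0.0473, 0 and 0.0967 CPM. Among genes that conjugate or oxidise auxin, the amido synthetase genes led. GH3.5 had 35.5, 27.2 and 34.9 CPM, GH3.2 had 28.9, 29.7 and 27.3 CPM and GH3.6 had 22.1, 15.1 and 27.1 CPM. GH3.4 and GH3.12 had 0 counts.

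All 6 auxin receptor genes were above 1 CPM per kb. TIR1 had 145, 169 and 199 CPM and 64.6 ± 10.2 CPM per kb, AFB1 had 98.8, 112 and 117 CPM, AFB5 had 93.7, 84.2 and 105 CPM, and the lowest, AFB4, had 17.7, 19.1 and 19.5 CPM. TIR1 was lowest in mock 1 and highest in mock 3. AFB5 and AFB2, neighbours in the order per length with 37.4 ± 4.11 and 37.3 ± 1.65 CPM per kb, did not differ beyond their spread. The Aux/IAA repressors spanned more than 3 orders of magnitude, from IAA15 with 0 counts and IAA5 with 0.0945, 0.0952 and 0.0967 CPM up to IAA9. IAA9 had 436, 431 and 396 CPM and 197 ± 10.2 CPM per kb, IAA16 had 242, 242 and 235 CPM and IAA17 had 116, 128 and 108 CPM. Of 29 Aux/IAA genes 23 reached 1 CPM per kb, and those at 10 CPM or more had a median CV of 8.45%. IAA9 alone made up more CPM than any other Aux/IAA gene in each of the 3 libraries.

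ARF genes split into a group with counts and a group without. ARF2 had 150.4, 118 and 114 CPM, ARF6 71.8, 60.6 and 91.1 CPM and ARF7, an activator of the auxin response in roots, 78.2, 66.02 and 69.9 CPM. Per length ARF2 stood at 32.9 ± 5.14 CPM per kb, above ARF6 at 18.3 ± 3.79 and ARF7 at 16.1 ± 1.40 CPM per kb, and the last 2 lay within their spread of each other. ARF11 had the lowest level above 0, 1.61, 1.71 and 0.919 CPM. The 7 genes ARF12, ARF13, ARF14, ARF15, ARF20, ARF21 and ARF22 had 0 counts, and this group is known from developing seeds.

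Auxin transport was led by PILS5 with 126, 119 and 169.9 CPM, a carrier of the endoplasmic reticulum, PIN2 with 233, 244 and 237 CPM, the efflux carrier of epidermis and cortex, and AUX1 with 179.8, 182 and 171 CPM, the main influx carrier. PIN2 had a CV of 2.38%, and AUX1 one of 3.29%. Of the other efflux carriers of the root, named outside the rule, PIN7 had 77.9, 65.5 and 92.7 CPM and PIN3 had 62.4, 52.2 and 66.5 CPM. PIN4 had 21.7, 19.0 and 31.2 CPM. Of the 22 transport genes all had counts, 16 reached 1 CPM per kb, and PILS4 was lowest with 0.0473, 0 and 0 CPM.

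Ethylene synthesis showed a wide gap between its 2 steps. Among the oxidases of the last step ACO5 had 559, 726 and 515 CPM. ACO4 had 62.3, 31.3 and 137 CPM and followed the order of the green transcripts, lowest in mock 2 and highest in mock 3. ACO1 had 68.3, 87.4 and 23.3 CPM and was lowest in mock 3, as the low oxygen genes were. These were the 2 members of the list with a CV over 50%. The synthases of the first, committed step were rare. The highest of them, ACS6, had 10.3, 10.2 and 6.58 CPM and 4.82 ± 1.13 CPM per kb, and ACS9 had 1 count over the 3 libraries, in mock 2. The 9 synthases ACS1, ACS2, ACS4, ACS5, ACS6, ACS7, ACS8, ACS9 and ACS11 were thus all below the lowest of the oxidases, ACO3, at 24.9 ± 12.2 CPM per kb. Genes of perception and signalling were all present. The receptor gene ERS1 had 316, 289.8 and 288 CPM, the transcription factor gene EIN3 had 211, 191 and 226 CPM and EBF2, an F-box gene whose product breaks down EIN3, had 222, 184 and 248 CPM. All 12 genes of the list reached 10 CPM per kb, and the lowest was RTE1 with 12.6, 13.6 and 15.5 CPM.

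Genes of the growth hormones cytokinin, gibberellin and brassinosteroid came next. Of 56 cytokinin genes 47 had counts and 32 reached 1 CPM per kb. LOG7, an activating enzyme, had 69.3, 57.3 and 72.6 CPM, and among the phosphotransfer genes AHP1 had 68.1, 75.6 and 67.6 CPM and AHP2 had 33.9, 40.7 and 34.6 CPM. Of 30 gibberellin genes 17 reached 1 CPM per kb, led by the DELLA repressor gene RGA with 133, 134 and 146 CPM, the F-box gene SLY1 with 37.8, 46.5 and 34.0 CPM and the synthesis gene KO1 with 54.3, 52.4 and 49.0 CPM. Brassinosteroid genes were led by DIM, a sterol reductase needed for synthesis, with 618, 727 and 818 CPM, followed per length by the kinase gene BIN2 with 193, 186 and 200.1 CPM and the receptor gene BRI1 with 174, 168 and 224 CPM. DIM was lowest in mock 1 and highest in mock 3, a ratio of 1.32.

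Abscisic acid genes were led by receptors, PYR1 with 174, 181 and 144 CPM, PYL4 with 191, 164 and 175 CPM and PYL5 with 187, 209 and 139 CPM, and 24 of 42 reached 1 CPM per kb. Jasmonate genes were led by the synthesis gene AOC4 with 82.0, 88.2 and 97.6 CPM, the conjugating enzyme gene JAR1 with 131, 125 and 161 CPM and the adaptor gene NINJA with 82.0, 88.0 and 78.2 CPM. Salicylic acid genes were led by the phenylalanine ammonia lyase genes PAL1 with 423, 355 and 393 CPM and PAL2 with 199, 180.4 and 151 CPM, and by the receptor gene NPR1 with 53.4, 55.1 and 46.4 CPM. The defence markers PR1 and PR2 and the synthesis gene PBS3 had 0 counts, while PR5 had 1 count. Strigolactone genes were led by the receptor gene D14 with 267, 276 and 210.04 CPM, SMXL2 with 83.3, 70.3 and 85.3 CPM and KAI2 with 23.4, 23.4 and 33.2 CPM. Of the enzymes of the early steps of strigolactone synthesis, D27 had 0.0945, 0 and 0.0967 CPM and CCD7 had 0.0473, 0 and 0 CPM.

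Some genes known for activity in roots were listed at or near 0 counts, and their exons are shared with another annotated gene. MYC2 (AT1G32640, chromosome 1 from 11798119 to 11801407 in TAIR10.1), the main transcription factor of jasmonate responses, had 0 counts in all 3 libraries. The opposite-strand gene AT1G32630 (11797330 to 11801359) covers 98.5% of its exonic bases and had 1.80, 2.52 and 2.32 CPM. The relatives MYC3 and MYC4, chosen after their values were seen, were not at 0, with 86.8, 75.9 and 78.4 CPM for MYC3 and 29.9, 30.8 and 28.4 CPM for MYC4. AMT1;1 (AT4G13510), an ammonium transporter gene, had 0.0945, 0.0476 and 0.0484 CPM and shared 98.4% of its exonic bases with an opposite-strand long non-coding RNA gene. The endodermis gene ESB1 (AT2G28670) had 0.567, 0.333 and 0.484 CPM with 84.3% shared, and the suberin transporter gene ABCG2 (AT2G37360) had 0 counts with 95.3% shared. The cytokinin oxidase gene CKX6 (AT3G63440) had 0 counts with 91.5% shared. These are the 5 of 605 genes in the lists whose exons were shared for at least 50%, all 5 were under 1 CPM, and they were chosen for this property after the values were seen.

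The same held over the genome. Of 539 nuclear protein-coding genes with over 90% of their exonic bases shared with other annotated genes, 513 (95.2%) had 0 counts and 2 reached 1 CPM. Of 523 genes with over 50% and up to 90% shared, 198 (37.9%) had 0 counts. Of 19961 genes with none shared, 3356 (16.8%) had 0 counts and 13077 (65.5%) reached 1 CPM. Where over 90% was shared with the opposite strand alone, 485 of 505 genes had 0 counts. Together, 711 of the 4378 nuclear protein-coding genes with 0 counts had more than 50% of their exonic bases shared. Neither the counting tool nor its strand setting is known here, so how the counting treated shared bases was not tested, and a value of 0 in these genes is not a measurement of absence.

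**Figure D4:**
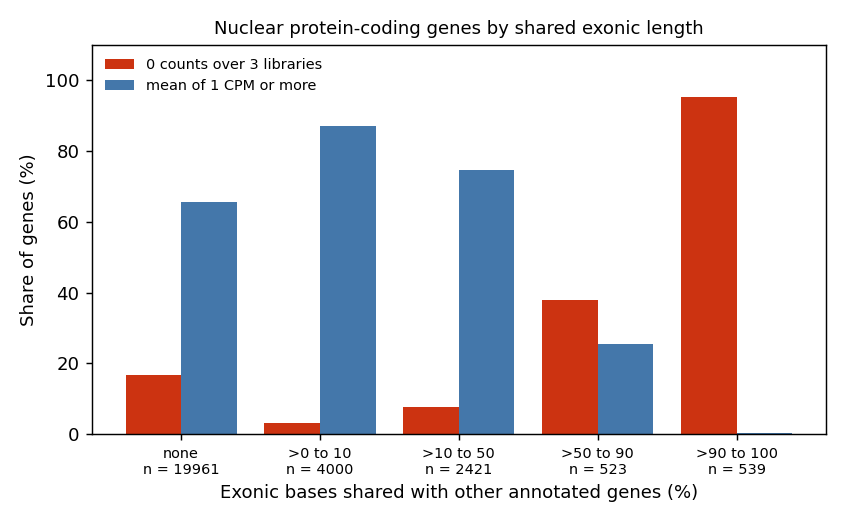
Nuclear protein-coding genes by the share of exonic bases that other annotated genes also cover (%, TAIR10.1). Red bars give the share of genes with 0 counts over the 3 mock libraries and blue bars the share with a mean of 1 CPM or more. Genes with over 90% shared had 0 counts in 95.2% of cases, and genes with none shared in 16.8%.

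Some wall and transport families were among the abundant groups of the root, and others were not. The 31 extensins and proline-rich proteins took 1.36% of the counts, led after AT2G43150 and EXT3 by EXT4 with 1092, 919 and 829 CPM. The 68 class III peroxidases took 1.00%, led by AT5G64100 with 1104, 1252 and 811 CPM, AT3G32980 with 1142, 979.6 and 1221 CPM and AT2G37130 with 1079.8, 1111 and 957 CPM. Arabinogalactan and fasciclin-like proteins were led by AGP31 with 784, 826 and 888 CPM, AGP24 with 192, 263 and 180.3 CPM and FLA9 with 322, 336 and 351 CPM. The 35 expansins took 0.0758% of the counts, and 8 of them had 0 counts. Their median was 3.18 CPM per kb, below the 4.57 CPM per kb of all nuclear protein-coding genes. Expansins were led by EXPA9 with 152, 202 and 199.98 CPM, and EXPA17 had 42.1, 94.4 and 77.4 CPM, lowest in mock 1. The 32 genes of XTH enzymes, which remodel xyloglucan, took 0.150% of the counts, with a median of 12.8 CPM per kb. They were led by XTH4 with 271, 275 and 470 CPM, XTH30 with 192, 173 and 206 CPM and XTH14 with 155, 149 and 131 CPM. XTH4 was highest in mock 3. Of the cellulose synthase genes of the primary wall, CESA3 had 782, 702 and 732 CPM, CESA1 had 803, 709 and 764 CPM and CESA6 had 386, 367 and 351 CPM.

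Of 23 aquaporin genes 21 had counts and 14 stood at 100 CPM per kb or more. After the TIP1 pair the highest per length was the plasma membrane channel PIP1;2 with 1551, 1661 and 1445 CPM. TIP3;1 and TIP5;1 had 0 counts. Nutrient uptake was led by the phosphate transporter gene PHT1;1 with 411, 391 and 425 CPM, the nitrate transporter gene NPF6.3 with 264, 246 and 358 CPM and the sulfate transporter gene SULTR1;2 with 329.7, 409 and 327 CPM. PHT1;1 and its neighbours PHT1;2 and PHT1;3 are near-identical copies, and PHT1;3 was listed at 0. The 2 members of this list with a CV over 50% were the iron transporter gene IRT1 with 47.0, 36.2 and 99.7 CPM and the nitrate reductase gene NIA1 with 64.1, 23.2 and 113 CPM. The thalianol cluster, which makes root triterpenes, was led by THAD with 127, 104 and 171 CPM, THAH with 96.1, 72.9 and 94.7 CPM and THAS with 62.8, 47.4 and 73.7 CPM.

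Genes known to respond to low sugar were abundant in the mock roots. DIN10, annotated as a raffinose synthase family gene and known as dark-inducible, ranked 4 by CPM with 3085, 2803 and 3160.1 CPM. GDH2, a glutamate dehydrogenase gene, had 1614, 1501 and 1595 CPM, and ERD5, the proline dehydrogenase gene, had 1352, 1241 and 1797 CPM. All 18 genes of the list had counts, 17 reached 10 CPM per kb, and the median was 86.3 CPM per kb. The summed level was 8792, 7625 and 9076 CPM, lowest in mock 2. The list was put together after values of these libraries had been seen, so its high level is a description of chosen genes.

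The spread between libraries was small for most genes. The median CV was 11.2% over 18706 genes at 1 CPM or more and 9.63% over 12795 genes at 10 CPM or more. The common biological coefficient of variation, edgeR's estimate of spread beyond counting error, was 18.8%. At 10 CPM or more, 138 genes differed over 2-fold between mock 1 and mock 2, 183 between mock 1 and mock 3 and 350 between mock 2 and mock 3. Without mock 3 the median CV was 7.15% and the biological coefficient of variation 13.9%. The median CV was 11.1% without mock 1 and 9.89% without mock 2, so each median over 2 libraries lay below the 11.2%. A CV over 2 libraries is not directly comparable with one over 3. Without mock 1 the biological coefficient of variation was 24.4%. Mock 2 and mock 3 were the least alike pair.

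The genes with wide spread mostly followed 1 order of the libraries. Of 12795 genes, 190 (1.48%) had a CV over 50%, and 139 of these had the order mock 3, mock 1, mock 2 from high to low, an order seen in 22.6% of all 12795 genes. A further 24 (12.6%) had the order mock 2, mock 1, mock 3, which was the order of 21.5% of all 12795 genes. Without mock 3 the number over 50% was 99, without mock 1 it was 322 and without mock 2 it was 171, each over 2 libraries. Product names of photosynthesis or plastids were carried by 49 of the 190 genes (25.8%), against 1.25% of the 12795.

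Of 16 green shoot tissue genes, 15 had the order mock 3, mock 1, mock 2. All 16 had a CV over 50%. The gene outside this order was RCA, Rubisco activase, with 221, 36.4 and 202 CPM, named after its value was seen. The mean summed level over all libraries was 2262 CPM, and it was 2147 CPM without mock 1, 3211 CPM without mock 2 and 1429.8 CPM without mock 3. The added list of shoot cuticle genes, 13 genes of the waxy surface of aerial organs, summed to 154, 77.8 and 385 CPM in the same order, and it was assembled after the spread had been seen. Its mean of 206 CPM was 231 CPM without mock 1, 269.5 CPM without mock 2 and 116 CPM without mock 3. Of its lipid transfer protein genes LTP1 had 26.4, 5.95 and 55.7 CPM and LTP2 had 14.4, 15.6 and 78.2 CPM, both highest in mock 3. Guard cell genes, at far lower levels, were in the same order in their sum.

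Of the 10 genes with the widest spread, 6 had this order of the libraries. GER3, a germin, had 5.43, 0.190 and 53.6 CPM and a CV of 149%. AT2G10940, a lipid transfer family gene, had 18.0, 1.86 and 127 CPM. RBCS2B had 10.9, 1.86 and 47.4 CPM and RBCS1B 34.2, 4.05 and 98.7 CPM. PRP4, a proline-rich wall protein gene, had 7.09, 3.00 and 33.7 CPM and the lipase gene AT3G16370 had 34.5, 12.3 and 128 CPM. All of these were lowest in mock 2 and highest in mock 3. XTH7, with 3.54, 7.81 and 37.9 CPM, and LTP2 were also highest in mock 3 but lowest in mock 1. The other two were AT3G05730, a defensin-like gene with 27.8, 0.190 and 3.43 CPM, and BCB, a blue copper protein gene with 36.0, 6.33 and 6.63 CPM, which were highest in mock 1.

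Of the 16 genes at 10 CPM or more in the list for low oxygen, wounding and handling, 11 had the order mock 2, mock 1, mock 3. ADH1, the alcohol dehydrogenase of fermentation, had 314, 436 and 7.69 CPM, and PDC1, the pyruvate decarboxylase before it, had 308, 367 and 18.9 CPM. LBD41, a transcription factor gene of the low oxygen response, had 120.3, 146 and 25.8 CPM and HB1, a haemoglobin gene, had 56.5, 94.97 and 19.8 CPM. Mock 2 was highest and mock 3 lowest in all 4. PCO1, an oxygen-sensing cysteine oxidase, and SUS4, a sucrose synthase, completed the 6 members with a CV over 50%, PCO1 with 46.3, 77.3 and 9.43 CPM and SUS4 with 68.8, 88.4 and 11.4 CPM. Of the touch and wounding genes of the same list, TCH2 had 15.4, 16.2 and 14.1 CPM and ZAT12 had 14.7, 14.99 and 14.9 CPM. Both were named after their values were seen, and in both the libraries lay close together. Across the 16 members the CV ran from 0.855% to 87.4% with a median of 35.9%, and 12 were lowest in mock 3. TCH2 and ZAT12 thus do not stand for the other touch and wounding genes, which are not printed. The summed level of the list was 1036 CPM over all libraries, 929.99 CPM without mock 1, 780.3 CPM without mock 2 and 1399 CPM without mock 3. What set the libraries apart in these genes was not tested.

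**Figure D5:**
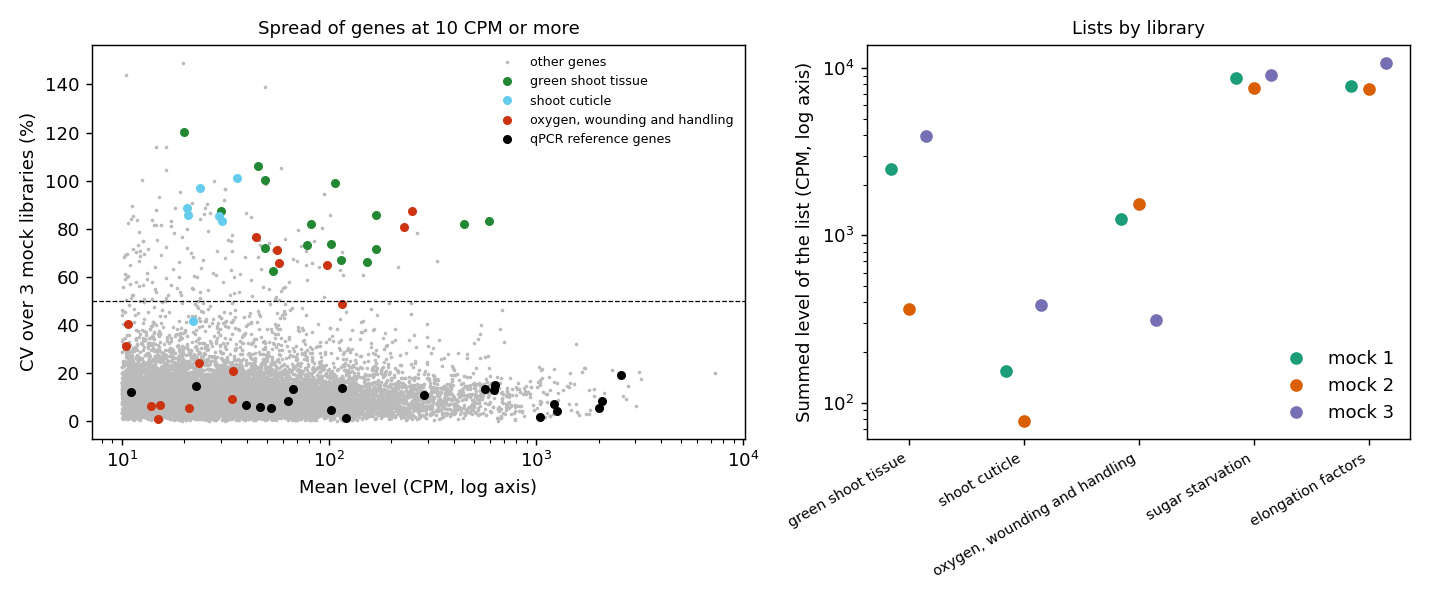
Spread between the 3 mock libraries. The left panel plots the CV (%) of each gene against its mean CPM on a log axis with 4 lists coloured and a dashed line at 50%, and the right panel the summed CPM of 5 lists by library on a log axis. The sums of the green and cuticle lists are lowest in mock 2, and that of the oxygen list is lowest in mock 3.

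The narrowest spread was found for genes of mixed roles. Among genes of at least 100 CPM, aconitase 1 (AT4G35830) had 652, 651 and 651 CPM and a CV of 0.0755%. The next was PCN with 109.8, 109.9 and 109.7 CPM. The vacuolar ATPase subunit gene VAB3 had 323, 322 and 323 CPM, the aquaporin gene TIP2;2 792, 794 and 789 CPM, the dynamin-like gene DL1 234, 235 and 235 CPM and the citrate synthase gene CSY2 129, 129 and 129.6 CPM. They were picked as the lowest CVs of 2139 genes and describe these libraries only.

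Of 20 genes often used as references in quantitative PCR, all 20 were at 10 CPM or more, and their median CV was 8.50%. YLS8 had 119, 122 and 119 CPM with a CV of 1.37%, and ACT8 had 1022, 1051 and 1057 CPM with a CV of 1.77%, although ACT8 shares sequence with ACT2. PP2AA3, a phosphatase subunit gene, had 99.2, 100.5 and 108 CPM with a CV of 4.75%. At the other end EF1A4 had a CV of 19.3%, ACT7 had 598, 554 and 736 CPM with a CV of 15.1%, and UBC21 had 23.2, 26.04 and 19.4 CPM with a CV of 14.6%. EF1A4 and ACT7 were highest in mock 3, and UBC21 was lowest there. The references YLS8, ACT8, PP2AA3, ACT7 and UBC21 were named after their values were seen.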

How the data were processed

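Ribodepleted RNA of mock-treated roots was sequenced as 100-base read pairs in 3 libraries, and 2 technical runs per sample were already combined by the authors. The deposited table gives raw read counts per gene for 32833 genes, per the file headers, with no normalization. FastQC, STAR 2.5.2b, SAMtools, DESeq2 1.26.0 and the genome build TAIR10 are named in the submitters' processing notes. How genes were counted, with which annotation and with which strand option, was not given in the sources used here. Read assignment to near-identical copies and to overlapping or antisense genes is therefore uncertain.

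CPM were computed with TMM factors from edgeR 4.0.16 in R 4.3.3 over the 3 mock libraries only, and divided by the union exonic length from the RefSeq annotation of TAIR10.1 for levels per kb. Of 32833 gene IDs 32548 matched that annotation, and the other 285 were organelle IDs with no length. The spread was described by the CV and by edgeR's common dispersion with an intercept only, checked on simulated data. There is 1 group, so nothing was tested and no p-value is given. Exonic overlap and upstream windows were computed with Python 3.11.15 from the same annotation.

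The members and lists were chosen with earlier results of these data known. Lists for sugar starvation and shoot cuticle were added after values were seen, and families were taken by symbol or product name. Text names the 20 nuclear protein-coding genes highest per length, the 10 highest by CPM, the 3 highest of each list, defining members at 0 counts, the lowest family member above 0, and the 10 genes of widest spread (at least 10 CPM) and of narrowest spread (at least 100 CPM). Not all of them are printed, and others are said to be outside the rule. The columns of the auxin-treated libraries and the deposited table of the authors' comparison were not used here. EN7 and GC1 were dropped because the reference names those loci otherwise, and GA2OX5 was not analysed here. Alternatives were other scalings, levels per length, stricter limits and each library left out.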

Additional observations from a re-analysis of the deposited data

How the results depend on the processing

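Counts of genes per level class, shares of counts and the median levels of 39 lists were recomputed under raw library totals, RLE size factors, TPM-type values, nuclear protein-coding genes only, stricter limits, and without each library. Per kb of exonic length 1160 genes reached 100 CPM per kb and 23 reached 1000 CPM per kb, against 2139 and 69 genes by CPM. Ranked per kb, the 10, 100 and 1000 highest genes took 2.51%, 12.5% and 41.8% of counts. The median CV was 14.5% with no filter on low counts. Leaving out 1 library gave a median CV between 7.15% and 11.1%, a common biological coefficient of variation between 13.9% and 24.4%, and between 99 and 322 genes with a CV over 50%, an alternative added after the data were seen. RLE and raw totals left all 39 list medians within the replicate SD, and TPM-type values moved 36 of them upward. TPM-type values multiply all genes of a library by 1 factor, so this move is a change of unit. The root cap median went from 7.75 to 12.8 and the endodermis median from 33.4 to 55.1. Without mock 1 the gibberellin median moved to 2.91 CPM per kb and without mock 3 the brassinosteroid median to 13.3 CPM per kb. No paired analysis was possible because 1 group was described and the results come from no test. Under 0.1 CPM the median variance of a gene's counts over the libraries was 1 times its mean, and the median CV was 173%. A single count in 1 library gives both values by arithmetic, so they do not measure the spread of these genes. Depth limits these levels, and the number of 3 libraries limits every CV.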
